A study of Mus musculus with 10 samples.

Results

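Of 50039 open chromatin regions (OCRs) counted in ILC2s of 5 mouse tissues, 1334 (2.67%) were most open in pancreas ILC2s. They were selected on the measured levels themselves. The raw count of each region was divided by the size factor of its library (the median ratio of the library to the average library), which gives a normalised count, and the level was log2(normalised count + 1). A region was kept when the lower of its 2 pancreas levels stood at least 0.2 above the highest of the 8 levels in the other tissues. The distance between these 2 values is called the margin here. High pancreas levels in these regions are therefore a description of how they were chosen, and no test is given for them.

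The study profiled accessibility by ATAC-seq in group 2 innate lymphoid cells (ILC2s) of pancreas, lung, bone marrow (BM), and the large (LI) and small intestine (SI), to ask how ILC2s of different tissues differ. The animals were wild-type C57BL/6 males, 6 weeks old, with no treatment named, and every library held 50000 sorted cells, pooled from 16 mice in BM, lung, and pancreas and from 10 in LI and SI. Each tissue had 2 libraries. The sort changed with the tissue: all cells lacked lineage markers (CD3, B220, CD11b, CD11c, and FceRI), BM cells were gated on ST2 and CD25, cells of LI, lung, and pancreas on CD45, CD127, ST2, and CD25, and SI cells on CD45, CD127, Thy1, and KLRG1 without ST2 or CD25. Tissue and gate cannot be told apart for SI and BM, and the p-values given further on cover the spread between 2 pools of cells.

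ILC2s are tissue-resident lymphocytes that depend on the transcription factor GATA3 and answer the alarmins IL-33, IL-25, and TSLP by secreting IL-5, IL-13, and amphiregulin. Their receptor for IL-33 is ST2, the product of Il1rl1. ATAC-seq counts where the transposase Tn5 can enter DNA, and distal OCRs are often enhancers, whose accessibility is set by the transcription factors present in the cell. Words of DNA that such factors bind are therefore worth reading in the regions themselves.

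The following sequences are the central 200 bases of 8 of these regions in GRCm38 (mm10), plus strand, 5′ to 3′. They were chosen to show regions with the largest margins and regions at Alox5, Il6, and Bach2, to which the results return. Capitals mark matches, on either strand, to 3 short words: AGATAA, bound by GATA factors, TGANTCA, bound by AP-1, and TGTGGT, bound by RUNX factors. The region near Qrsl1 held 3 GATA words and 1 AP-1 word in this window, that upstream of Il6 held 2 GATA words and 1 AP-1 word, and the windows of Wipf3, Stc2, Alox5, and Bach2 held none of the 3 words.
Wipf3 (intron 1, chr6:54452455-54452654): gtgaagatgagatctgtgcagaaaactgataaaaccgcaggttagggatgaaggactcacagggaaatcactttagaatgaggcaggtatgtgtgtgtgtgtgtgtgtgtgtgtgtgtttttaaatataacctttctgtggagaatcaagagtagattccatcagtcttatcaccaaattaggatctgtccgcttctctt
Runx1t1 (intron 1, chr4:13828399-13828598): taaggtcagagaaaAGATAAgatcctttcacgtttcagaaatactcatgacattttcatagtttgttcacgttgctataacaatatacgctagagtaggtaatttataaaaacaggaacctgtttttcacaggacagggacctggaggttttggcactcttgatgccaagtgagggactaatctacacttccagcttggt
Qrsl1 (160 kb downstream of the TSS, chr10:43741913-43742112): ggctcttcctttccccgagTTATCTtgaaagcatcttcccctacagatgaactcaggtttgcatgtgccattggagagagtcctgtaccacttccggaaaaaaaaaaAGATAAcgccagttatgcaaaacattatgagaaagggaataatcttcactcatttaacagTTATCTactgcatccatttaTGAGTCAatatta
Stc2 (11.8 kb downstream of the TSS, chr11:31358196-31358395): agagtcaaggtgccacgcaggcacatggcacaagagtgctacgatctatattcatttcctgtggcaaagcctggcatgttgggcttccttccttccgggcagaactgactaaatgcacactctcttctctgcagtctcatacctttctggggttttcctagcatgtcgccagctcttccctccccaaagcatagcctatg
Alox5 (intron 3, chr6:116438842-116439041): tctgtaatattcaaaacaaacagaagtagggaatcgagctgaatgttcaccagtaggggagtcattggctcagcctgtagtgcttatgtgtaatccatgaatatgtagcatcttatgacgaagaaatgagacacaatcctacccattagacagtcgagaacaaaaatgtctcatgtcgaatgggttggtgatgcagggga
Cited2 (422 kb upstream of the TSS, chr10:17301301-17301500): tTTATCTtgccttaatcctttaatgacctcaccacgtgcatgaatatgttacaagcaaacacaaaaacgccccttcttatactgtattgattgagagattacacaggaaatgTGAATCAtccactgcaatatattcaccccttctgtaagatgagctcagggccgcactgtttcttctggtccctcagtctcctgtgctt
Il6 (39.4 kb upstream of the TSS, chr5:29973628-29973827): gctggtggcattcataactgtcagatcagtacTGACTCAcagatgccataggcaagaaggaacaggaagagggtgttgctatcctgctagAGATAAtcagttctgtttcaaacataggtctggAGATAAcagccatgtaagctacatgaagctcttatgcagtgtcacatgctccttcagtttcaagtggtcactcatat
Bach2 (102 kb upstream of the TSS, chr4:32315078-32315277): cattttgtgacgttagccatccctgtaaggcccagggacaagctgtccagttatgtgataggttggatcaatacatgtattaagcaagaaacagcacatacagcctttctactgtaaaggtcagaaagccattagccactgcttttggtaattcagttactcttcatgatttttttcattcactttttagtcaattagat

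In pancreas the 1334 regions had a median normalised count of 221 in replicate 1 and 230 in replicate 2. Median levels in the other tissues were 109 and 107 normalised counts in lung, 117 and 118 in LI, 67.9 and 79.1 in BM, and 66.2 and 65.8 in SI. Across all regions of the table the library medians lay between 128 and 153. Outside pancreas these regions were most open in LI and lung and least open in BM and SI. Pancreas exceeded LI by a median of 0.86 on the log2 scale, lung by 0.91, BM by 1.36, and SI by 1.62. The regions held 1.99% and 1.97% of all counts in the pancreas libraries, and between 0.749% and 1.27% in the other 8 libraries. Total counts ranged from 10282987 (pancreas replicate 2) to 32797872 (lung replicate 2), and the raw count behind a region in the shallowest library, pancreas replicate 2, had a median of 110 and a minimum of 27.

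**Figure D1:**
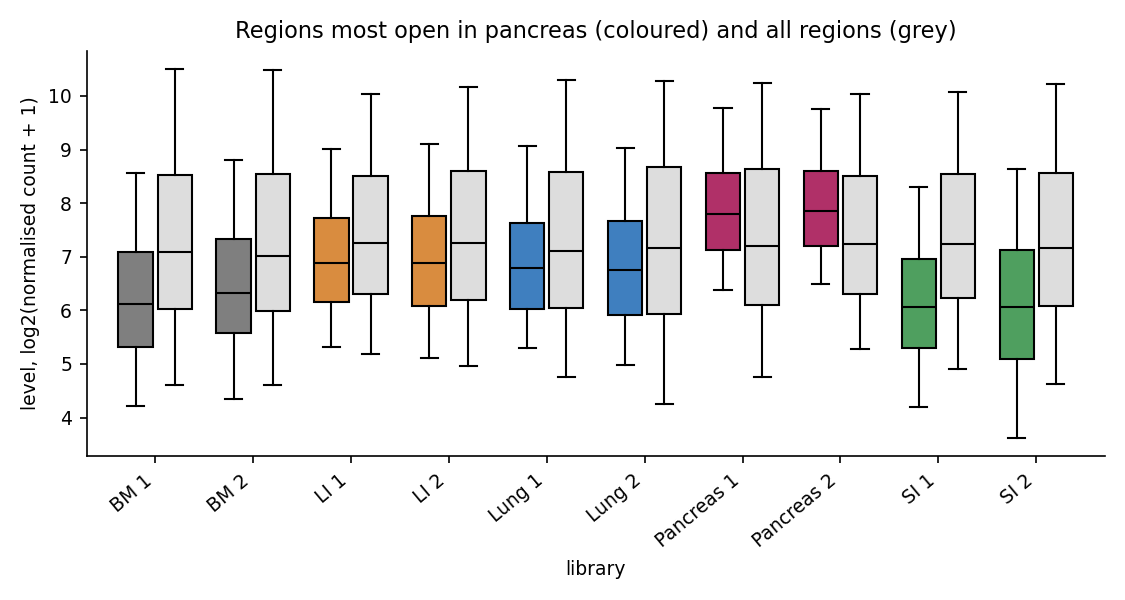
Levels, as log2(normalised count + 1), of the 1334 regions most open in pancreas (coloured boxes) and of all 50039 regions (grey boxes) in each of the 10 libraries. Boxes span the quartiles with the median as a line, and whiskers reach from the 5th to the 95th percentile. The coloured boxes stand above the grey ones in pancreas, as the selection requires, and lie lowest in SI and BM.

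Margins were mostly small. The median was 0.40, the quartiles were 0.28 and 0.59, and the largest was 2.56. A margin of 0.5 was reached by 478 regions, a margin of 1 by 78, and a margin of 2 by 5. The 3 regions just inside the limit, in introns of Tex14 (0.2003) and Pigk (0.2004) and near Tbc1d30 (0.2007), had lower pancreas levels of 272, 151, and 82 normalised counts against highest other levels of 237, 131, and 71.2. The 3 just outside, near Pabpc4l (0.1996) and in introns of Pdlim1 (0.1995) and Atp2b1 (0.1994), had 74.9, 349, and 323 against 65.1, 303, and 282. Values on both sides of the limit looked alike. How many regions pass depends on the scaling of the libraries: with TMM factors 1301 regions were chosen, with library size alone 872, and after removal of a trend with GC content 1026, of which 1256, 833, and 894 belonged to the 1334. A core of 674 regions (50.5%) was chosen under these settings, a pseudocount of 10, and counts thinned to the smallest library alike, and all 78 regions with a margin of at least 1 were among them. The rule leans on both pancreas libraries. With replicate 2 of pancreas alone 3408 regions passed, and with replicate 1 alone 2449.

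The region with the largest margin lay in intron 1 of Wipf3 (chr6:54452304-54452804), which encodes a protein of the actin-regulating WIP family. Its normalised counts were 220 and 225 in pancreas, 26.7 and 15.8 in lung, 33.9 and 25.7 in LI, 8.73 and 2.79 in BM, and 36.5 and 18.3 in SI. Pancreas was 5.9-fold above the highest other library. A region in intron 29 of Dock1 (chr7:135003018-135003518), whose nearest start site is that of Insyn2a, had 275 and 258 in pancreas, 39.2 and 17.5 in lung, 50.9 and 25.7 in LI, 14.6 and 30.7 in BM, and 18.2 and 12.9 in SI. The third lay in intron 1 of Runx1t1 (chr4:13828248-13828748), which encodes a transcriptional corepressor. There the counts were 126 and 160 in pancreas, 17.2 and 25.1 in lung, 10.2 and 16.3 in LI, 15.5 and 16.7 in BM, and 7.68 and 4.07 in SI. In these 3 regions the other 4 tissues were all low, and the order among them differed from region to region.

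Next came regions 160 kb downstream of the start of Qrsl1 (margin 2.11) and in intron 1 of Enox1 (2.02). The region near Qrsl1 had 366 and 449 normalised counts in pancreas and 83.9 at most elsewhere, in lung. Close behind, a region 11.8 kb downstream of the start of Stc2 (chr11:31358026-31358565), which encodes the secreted glycoprotein stanniocalcin 2, had 208 and 242 in pancreas, 51.7 and 41 in lung, 25.4 and 16.3 in LI, 9.7 and 13 in BM, and 16.3 and 5.43 in SI. Lung was the next tissue here. The promoter of Stc2 itself was also among the 1334, with 399 and 519 in pancreas, 145 and 163 in lung, 102 and 70.4 in LI, 32 and 23.3 in BM, and 53.7 and 26.5 in SI. It had the largest margin (1.28) of the 71 promoter regions. The remaining regions among the first 12 lay at Adgrg4, Sgk1, Cdk18, Pard3b, Cited2, and Mpp6, with margins between 1.61 and 1.95. Sgk1 encodes a serum- and glucocorticoid-induced kinase, and Cited2 a transcriptional coregulator.

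**Figure D2:**
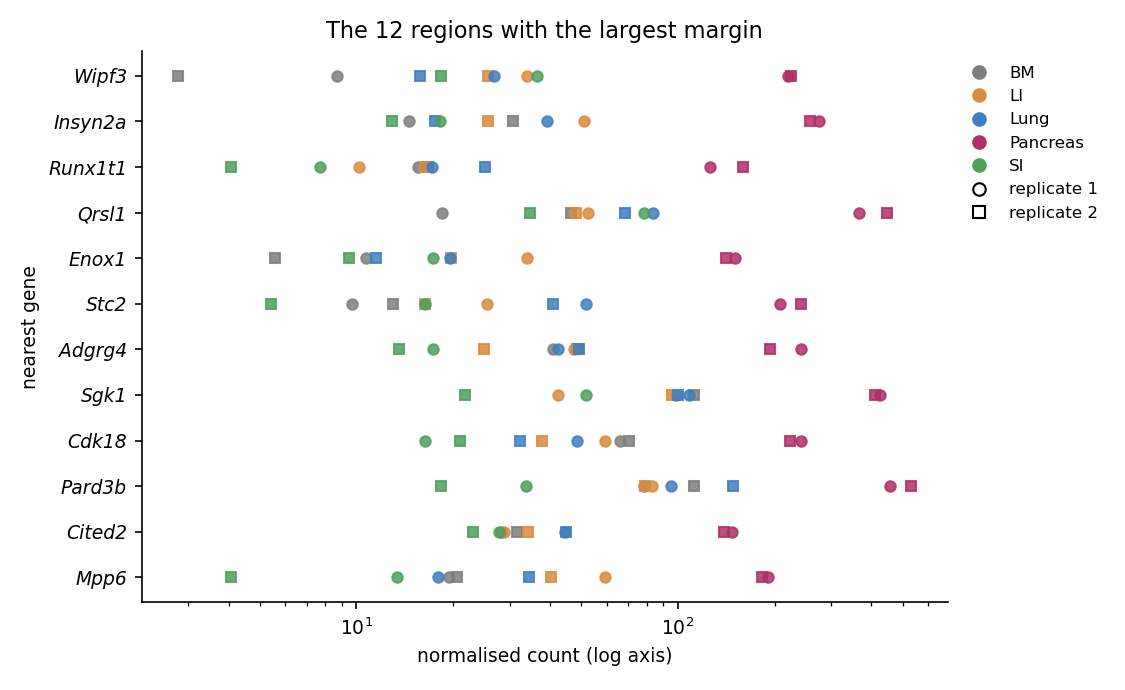
Normalised counts, on a log axis, of the 12 regions with the largest margin in each of the 10 libraries, with circles for replicate 1 and squares for replicate 2. Regions are named by the gene with the nearest start site. Both pancreas libraries lie to the right of the other 8 in every row, by a factor of 5.9 at Wipf3 and of 3.04 at Mpp6.

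Most of the regions were distal. A promoter was taken as 1000 bases upstream to 100 bases downstream of a transcription start site (TSS) of a curated RefSeq gene. By that measure 71 regions (5.32%) lay at promoters, 682 (51.1%) elsewhere inside genes, and 581 (43.6%) between genes, whereas 19% of all regions were at promoters. The same selection made for another tissue gave promoter shares of 3.57% for LI (1035 regions), 6.37% for lung (1083), 6.87% for SI (1718), and 29.3% for BM (3226). A low promoter share was therefore common to LI, lung, pancreas, and SI. The median distance to the nearest protein-coding TSS was 26.6 kb, against 12.7 kb over all regions, and the median GC content was 46.2% against 49.8%. Width hardly differed (528 and 532 bases), nor did the share of bases in repeats by much (11.2% and 9.46%).

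The regions were also read for 16 short words in their central 500 bases, on both strands, with overlaps between words allowed. AGATAA, the GATA word, stood in 41% of them and in 24.8% of all regions, and its share rose to 52.6% in the 78 regions with a margin of at least 1. Among the other tissues' sets it was 36.1% for BM, 31.1% for LI, 30.4% for lung, and 25.1% for SI. TGANTCA, the AP-1 word, stood in 42.4% of the pancreas regions and in 23.2% of all regions, with 57.2% in the LI set, 27.5% in the lung set, 21.5% in the SI set, and 13.2% in the BM set. Over whole sets, pancreas regions thus had the highest GATA share of the 5 and the second highest AP-1 share. The sets differ in composition, with 29.3% promoters and a median GC content of 52% in the BM set, against 5.32% and 46.2% in pancreas. Shares were therefore also taken over regions outside promoters with 42.7% to 49.7% GC. There AGATAA was in 43.4% of 650 pancreas regions and 33.2% of 15780 others, and TGANTCA in 44% and 29.5%. The sets of the other tissues were not restricted in this way, so the order of the 5 sets under it is not known.

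Smaller differences were seen for GGAAGT, the ETS word (43.9% against 37.2% of all regions), and for AGGTCA, the half-site of many nuclear receptors (36.2% against 27.7%). AGGTCA was more common in the LI set (40.8%) than in the pancreas set. With the GC restriction the shares were closer, 43.1% against 38.9% for the ETS word and 37.1% against 32.2% for the half-site. The RUNX word was about as common in pancreas regions (41.6%) as in all regions (39.1%), and less so than in the SI set (54.3%), and in the GC-restricted comparison it was less common in pancreas regions (44.2% against 49.3%). CCNCNCCC, bound by KLF and SP factors, was in 37.4% against 52.8%, and GCGTG, the core bound by AHR, in 23.8% against 40.2%. In the GC-restricted comparison the KLF and AHR shares were 33.7% against 37.9% and 21.2% against 26.7%. A match describes the letters and does not show that a factor was bound.

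**Figure D3:**
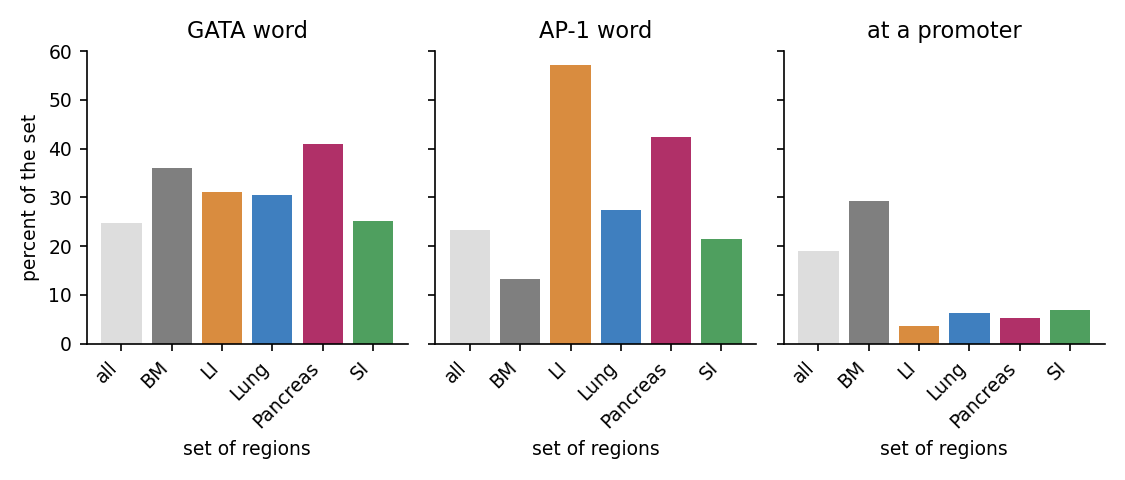
Percentage of regions with the GATA word, with the AP-1 word, and at a promoter, for all 50039 regions and for the sets chosen by the same rule in each tissue. The pancreas set has the tallest bar for the GATA word (41%), the LI set for the AP-1 word (57.2%), and the BM set for promoters (29.3%).

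The 1334 regions were nearest to 980 protein-coding genes, 6.69% of the 14639 genes with any region. A single region fell to 758 of them, 2 to 147, 3 to 46, and 4 or more to 29, and those 29 genes held 144 regions. Naming a region by the nearest start site is a convention, and it may act on some other gene. Inside a gene other than the nearest lay 149 regions. Clustering along the chromosome was marked in places. Within 50 kb of another member lay 525 regions (39.4%), a share that was 29.7% in the LI set, 40.9% in the SI set, 43.2% in the BM set, and 48.6% in the lung set. Chromosome 1 had the highest share of its regions selected (4.07%), and none of the 53 on Y was selected.

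Bach2 had the most, 12 of 29 regions. It encodes a transcriptional repressor of the bZIP family that competes with AP-1 at its sites and restrains effector differentiation in lymphocytes. All 29 regions named after Bach2 lay upstream of its TSS. The 12 covered a stretch of 126 kb (chr4:32267345-32393677), among 8 other regions of the same stretch that were not selected. A further selected region inside the Bach2 gene (chr4:32572063-32572563, margin 0.50), at the promoter of Bach2os, was nearest to the TSS of Gja10 and is not counted here. The largest margin (1.01) belonged to the region 102 kb upstream, with 172 and 155 normalised counts in pancreas, 53.3 and 76.5 in lung, 49.2 and 66.9 in LI, 17.5 and 23.3 in BM, and 19.2 and 10.9 in SI. A region 108 kb upstream had 492 and 378 in pancreas, 116 and 110 in lung, 144 and 198 in LI, 110 and 119 in BM, and 27.8 and 21.7 in SI. The most open of the 12, 53.7 kb upstream, reached 1500 and 1130 in pancreas, 495 and 536 in lung, 843 and 782 in LI, 431 and 464 in BM, and 203 and 186 in SI. SI was lowest at these 3 regions apart from an overlap with BM at the first. Of the 12, 8 were kept under all 5 other ways of scaling and counting.

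Alox5 had 7 of its 10 regions selected. It encodes 5-lipoxygenase, the enzyme that opens leukotriene synthesis from arachidonic acid, and leukotrienes activate ILC2s. The 7 regions covered 30.4 kb from exon 1 to intron 3 (chr6:116430826-116461222). The exon 1 region, 0.206 kb from the TSS, had 246 and 233 normalised counts in pancreas, 137 and 167 in lung, 105 and 129 in BM, 61 and 38.6 in LI, and 61.4 and 27.8 in SI. The most open one, in intron 3, had 477 and 569 in pancreas, 210 and 209 in lung, 107 and 150 in BM, 67.8 and 77.2 in LI, and 84.4 and 65.1 in SI. Its neighbour in the same intron, whose sequence is shown above, had the largest margin (1.56), with 176 and 300 in pancreas, 46.3 and 59 in lung, and no more than 37.8 in any other library. Lung was the next tissue in each of these 3, and LI and SI were low. Of the 7, 6 were kept under all 5 other settings. The 3 regions of Alox5 that were not selected lay between them and at the far end, and one of these, 33.4 kb from the TSS, had 19 and 37.8 in pancreas against 58.2 and 61.4 in BM.

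**Figure D4:**
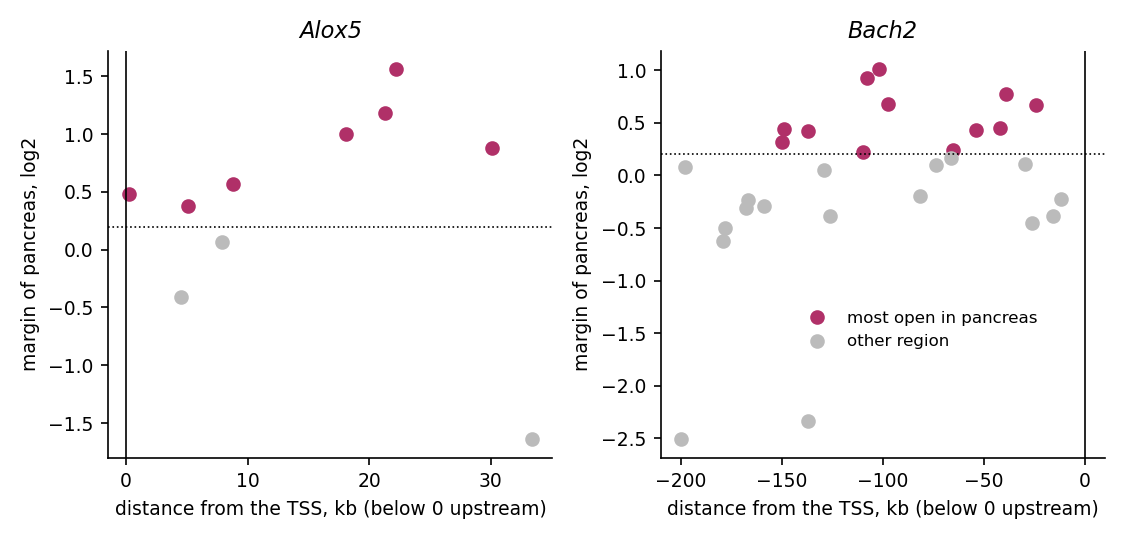
Margin of pancreas over the highest other library (log2) against distance from the TSS in kb, for the 10 regions nearest to Alox5 and the 29 nearest to Bach2. Filled coloured points are regions most open in pancreas, grey points the others, and the dotted line marks the limit of 0.2. For Alox5 7 points and for Bach2 12 points lie above the line, interspersed with regions below it.

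Nabp1, which encodes a single-stranded DNA binding protein of the damage response, had 8 of 21 regions, 5 of them 88.1 to 114 kb upstream of its TSS inside the non-coding gene Gm17767. The most open of these had 992 and 943 normalised counts in pancreas, 544 and 538 in lung, 514 and 557 in LI, 363 and 486 in BM, and 274 and 407 in SI. At the TSS of Nabp1 the levels were 1760 and 1670 in pancreas and 1280 to 2400 elsewhere, and the 2 ranges overlapped. Fbxl17 had 7 of 19 regions, Mdfic 6 of 27, and Aldh8a1, Arhgap18, Chd7, Eepd1, Nck2, Sgk1, Spin1, and Thsd7b 5 each. Regions of Aldh8a1 and Sgk1 neighboured each other on chromosome 10, between positions 21465284 and 21964901. At Sgk1 one of those between genes had 412 and 393 in pancreas, 158 and 89.6 in lung, 96.6 and 77.2 in LI, 36.9 and 68.8 in BM, and 18.2 and 10.9 in SI.

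Another 16 genes had 4 each: Cnst, Ctnnd2, Dgkd, Gas7, Gch1, Inpp4b, Itpr1, Mtap, Nrip1, Nrp1, Olfr314, Pard3b, Sh3bgrl2, Tmem64, Tmprss11e, and Tns1. Every listed region of Olfr314 and of Tmprss11e was selected (4 of 4 each), as were 4 of 5 at Ctnnd2 and 4 of 7 at Gch1. Gch1 encodes the first enzyme of tetrahydrobiopterin synthesis, and its strongest region had 458 and 386 normalised counts in pancreas, 181 and 220 in lung, 310 and 273 in LI, 63.1 and 77.2 in BM, and 56.6 and 66.5 in SI. By contrast Inpp4b and Nrip1, with 45 regions each, had 8.89% of them selected.

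Among genes of arachidonate metabolism and its receptors, 14 of 139 regions were most open in pancreas (10.1%, against 2.67% of all regions). Alox5 gave 7 of these. The others lay at the prostaglandin E receptors Ptger2 (2), Ptger3 (2), and Ptger4 (1), at the prostacyclin receptor Ptgir (1), and near Lpcat2 (1), which encodes an enzyme of platelet-activating factor synthesis. At the Ptger3 promoter normalised counts were 177 and 181 in pancreas, 97 and 125 in BM, 36.8 and 27.9 in lung, 112 and 60.1 in LI, and 32.6 and 30.5 in SI. BM was next there, and lung was low, unlike at Alox5. The promoter region of Ptgir was open everywhere, with 556 and 489 in pancreas, 403 and 409 in lung, 375 and 378 in LI, 297 and 397 in SI, and 170 and 240 in BM. Near Lpcat2 the counts were 220 and 151 in pancreas and 6.78 to 100 elsewhere.

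ILC2 cytokines and effectors had 11 of 216 regions (5.09%). Il6 accounted for 3, Tnfsf8 for 2, and Areg, Cd200r1, Icos, Il5, Lif, and Tnfrsf4 for 1 each. The region 39.4 kb upstream of Il6 (chr5:29973476-29973979), shown above, had 146 and 160 normalised counts in pancreas, 52.5 and 40.4 in lung, 72.9 and 55.8 in LI, 50.5 and 75.3 in BM, and 34.5 and 38.7 in SI. At the start of Il5, a cytokine that sustains eosinophils, the region had 213 and 176 in pancreas, 92.5 and 149 in lung, 109 and 150 in LI, 64 and 79.1 in BM, and 75.8 and 92.9 in SI, with a margin of 0.23. A region upstream of Areg, which encodes amphiregulin, had 475 and 517 in pancreas, 358 and 390 in LI, 282 and 261 in BM, 168 and 143 in lung, and 95 and 210 in SI. Margins at Il5 and Areg were thus close to the limit, and that at Il6 (0.95) was not.

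Cytokine receptors had 6 of 170 regions (3.53%), at Il1rl1 (3), Il2ra, Il4ra, and Il10ra. Il1rl1 and Il2ra encode ST2 and CD25, on which pancreas, lung, LI, and BM cells were sorted and SI cells were not. At Il1rl1 an upstream region had 919 and 788 normalised counts in pancreas, 592 and 492 in BM, 567 and 606 in lung, 387 and 380 in LI, and 152 and 176 in SI. In intron 1 of Il4ra, which encodes the IL-4 and IL-13 receptor chain, counts were 449 and 447 in pancreas and 125 to 268 elsewhere. Of the 681 regions at ILC2 transcription factors 14 were selected (2.06%), below the share over all regions, with 3 at Rora, 2 each at Gata3, Id2, and Ikzf2, and 1 each at Bcl11b, Ets1, Gfi1, Runx1, and Zbtb16. The one in intron 2 of Zbtb16 (chr9:48826231-48826750), which encodes PLZF, a factor of ILC precursors, had 208 and 195 in pancreas, 93.2 and 92.7 in LI, 89.3 and 76.3 in BM, 85.4 and 87.5 in SI, and 40.8 and 33.3 in lung. It was one of few regions named here at which lung was lowest.

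Shares close to or below that of all regions were found for chemokine receptors and exit signals (4 of 150, 2.67%), integrins and residency genes (3 of 173, 1.73%), the TGF-β pathway (5 of 230, 2.17%), nuclear receptors (5 of 216, 2.31%), and lipid and arginine metabolism (3 of 146, 2.05%). Galectin, annexin, S100, and cytoskeleton genes had 5 of 118 (4.24%), 2 of them at Wipf3, and neuropeptide, adrenergic, and cAMP genes had 8 of 177 (4.52%), 3 of them at Adora2a. A list of 41 genes taken from the single-cell RNA-seq that the study ran on pancreas ILC2s had 27 of 223 regions (12.1%) at 12 genes: Alox5, Anxa1, Cd47, Dusp5, Gimap3, Lpcat2, Map6, Nrgn, Runx1t1, Serpinb1a, Stc2, and Tmem176b. Genes in 2 lists count in both. At Anxa1, which encodes annexin A1, an anti-inflammatory protein that limits phospholipase A2, the intron 1 region had 99.8 and 111 in pancreas, 80 and 61.8 in lung, 72.9 and 67.8 in LI, 24.3 and 25.1 in BM, and 48.9 and 19.7 in SI. The promoter of Tmem176b had 458 and 416 in pancreas and 277 to 355 elsewhere, an even narrower step.

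The identity of the cells was checked at marker genes. Regions at ILC2 markers were present in every library, with 15 of 233 (6.44%) most open in pancreas and summed normalised counts of 74700 and 84200 in pancreas against 47600 to 78900 elsewhere. None of the regions at T cell (18), B cell (20), myeloid (19), NK cell and ILC1 (38), ILC3 (14), or islet (14) markers was selected. The share over all regions was 2.67%, and lists this short can hold none at such a share. Markers of the exocrine pancreas had 1 of 26, a region 26.7 kb from Prss2, with summed counts of 6660 to 6790 in pancreas and 5740 to 8480 elsewhere. Islet regions summed to 1830 and 1940 in pancreas and 1850 to 2090 elsewhere, with no region listed at Ins1, Ins2, Pdx1, or Iapp. Stromal and endothelial markers had 3 of 40 (2 at Kdr and 1 at Col1a2), with sums of 6820 and 7020 against 5240 to 7240. Eosinophil markers had 1 of 8, at Ccr3. Both pancreas sums lay below all others for NK cell and ILC1 markers (8210 and 8030 against 8240 to 9390). The same held for ILC3 markers (1160 and 1190 against 1210 to 3030). Mast cell and basophil markers were the only list with both pancreas sums above all others. Their 10 regions at 3 genes summed to 3090 and 3250 in pancreas and to 1320 to 2810 in the other libraries. The 5 regions at Hdc summed to 2610 and 2330 against 1020 to 2060, the 2 at Cma1 to 149 in both pancreas libraries against 40.3 to 117, and the 3 at Cpa3 to 492 and 617 against 260 to 729. Fcer1a, Mcpt4, Mcpt8, and Ms4a2 had no region. The part of other cells in these levels was not tested.

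The selection capped the levels of all 8 other libraries at the pancreas level, so their values entered it, and it left out regions higher in BM or SI than in pancreas. The orders among the other 4 tissues that follow are therefore a description of the chosen regions, and the shares over all regions, which had no such cap, are not what a random choice under the rule would give. LI was the highest of the 4 at 619 regions (46.4%, against 21.7% of all regions) and lung at 489 (36.7%, against 20.2%). BM was highest at 177 (13.3%, against 32.9%) and SI at 49 (3.67%, against 25.2%). Conversely, SI was the lowest at 693 (51.9%, against 23.4% of all regions) and BM at 488 (36.6%, against 28.4%).

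Single regions were tested between these tissues with edgeR's quasi-likelihood test over 49981 regions, with Benjamini-Hochberg adjustment and a threshold of 0.05. Lung exceeded SI at 465 of the 1334 regions (34.9%; 9.86% of all regions were called), and SI exceeded lung at 16 (1.2%; all regions 11.1%). LI exceeded SI at 415 (31.1%; all regions 6.9%). None was called higher in SI than in LI (all regions 1.53%), with 6 at an unadjusted p under 0.05, 0 called by DESeq2 and 1 by edgeR on library size alone. LI exceeded BM at 467 (35%; all regions 18.3%) and BM exceeded LI at 18 (1.35%; all regions 12.6%). Lung exceeded BM at 333 (25%; all regions 11.5%) and BM exceeded lung at 23 (1.72%; all regions 7.56%). The differences between these shares and those over all regions were not tested.

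Between SI and BM the calls were split, with 265 higher in BM (19.9%; all regions 10.7%) and 149 higher in SI (11.2%; all regions 15.1%). With library size alone these were 198 and 206 (all regions 6.68% and 20.4%). Lung and LI differed at few regions, 77 higher in LI (5.77%; all regions 8.18%) and 25 higher in lung (1.87%; all regions 2.72%), and with library size alone this split turned, to 45 and 65 (all regions 5.56% and 6.8%). Without lung replicate 2 there were 5 and 4 (all regions 1.96% and 0.558%). Other counts also fell when a library was left out. Without BM replicate 1, 263 regions were higher in LI than in BM and 194 higher in lung (all regions 10.6% and 6.21%), and without lung replicate 2 the latter was 217 (all regions 6.24%). Without LI replicate 1, 261 were higher in LI than in SI (all regions 3.91%). Without BM replicate 2 the split between BM and SI was 141 and 99 (all regions 6.4% and 8.46%).

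Medians of the fitted differences were 0.74 (log2) for LI minus SI, 0.59 for lung minus SI, 0.53 for LI minus BM, 0.41 for lung minus BM, -0.09 for lung minus LI, and -0.15 for SI minus BM, with medians over all regions between -0.05 and 0.02. At 123 regions (9.22%, against 1.7% of all regions) lung and LI were each called above both BM and SI, and 479 (35.9%, against 49.4%) had no call in any of the 6 comparisons.

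**Figure D5:**
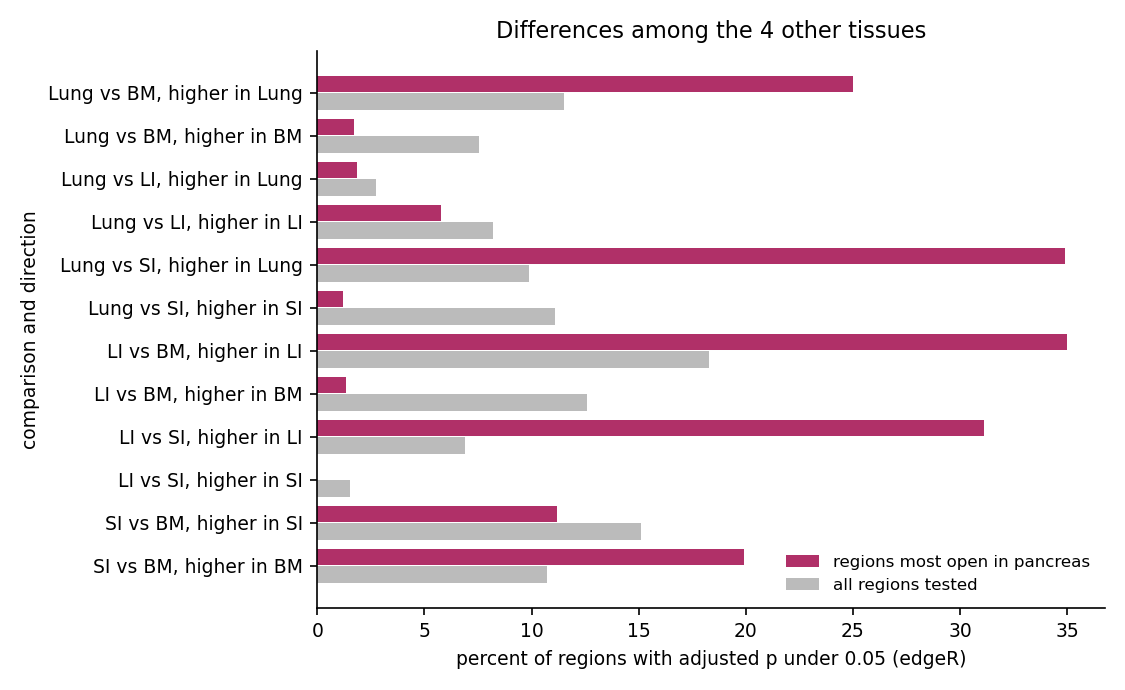
Percentage of regions called different (edgeR, adjusted p under 0.05) in each direction of the 6 comparisons among LI, lung, BM, and SI, for the 1334 regions most open in pancreas and for all 49981 regions tested. The coloured bars are longest for lung over SI (34.9%), LI over BM (35%), and LI over SI (31.1%), and there is none for SI over LI.

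Of the 123 regions the largest margin (1.47) was near Sema3e, which encodes a semaphorin. Its normalised counts were 319 and 256 in pancreas, 91.7 and 74.3 in lung, 89.9 and 90.1 in LI, 9.7 and 11.2 in BM, and 23 and 27.8 in SI. Lung exceeded BM by 2.98 (log2) at adjusted p = 3.65e-05 in edgeR, and SI by 1.67 at adjusted p = 0.00131. A pair of regions at Pnoc, which encodes the nociceptin precursor, and a pair at Ctnnd2 were alike in this. The stronger at Pnoc had 390 and 386 in pancreas, 159 and 138 in lung, 149 and 144 in LI, 28.1 and 33.5 in BM, and 30.7 and 23.7 in SI. At Ctnnd2 the region in intron 2 with the highest counts had 981 and 890 in pancreas, 379 and 319 in lung, 324 and 411 in LI, 67 and 110 in BM, and 65.3 and 57.7 in SI. The region 102 kb upstream of Bach2 was also among the 123. In these named regions pancreas, lung, and LI stood apart from BM and SI in every library. They were chosen by those calls and by the margin, so this order and the adjusted p-values only describe the choice.

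Another order was seen at some regions of Alox5. At its most open region lung exceeded LI by 1.50 (log2) at adjusted p = 0.00204 and SI by 1.48 at adjusted p = 0.000793 in edgeR, and at exon 1 lung exceeded LI by 1.63 at adjusted p = 0.00813. Lung and BM were not called different at either region (0.72 and 0.39, adjusted p = 0.0599 and 0.459 in edgeR). The Alox5 regions 5.11 and 8.81 kb from the TSS differed, with lung above BM by 1.07 and 1.52 (adjusted p = 0.0443 and 0.0227, edgeR). Lung was not called above LI at the latter (1.13, adjusted p = 0.115, edgeR), nor at those 18.1, 22.2, and 30.1 kb from the TSS. The selected regions of Alox5 thus had no single order. At the promoter of Stc2, by contrast, BM was low, with lung above BM by 2.49 (adjusted p = 0.000157, edgeR) and LI above BM by 1.64 (adjusted p = 0.00361).

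Promoters that were not selected themselves allow a look at the same genes in other regions, although in the same libraries. Of 9452 such promoters 622 belonged to a gene nearest to one of the 1334 regions. Against the mean of the other 4 tissues, 23 of the 622 were called higher in pancreas (3.7%; 1.25% of all such promoters were called) and 3 lower (0.482%; all such promoters 1.82%). Their median difference was -0.06 (log2), against -0.17 over all such promoters, and the median promoter near these regions was thus not higher in pancreas. Since promoters among the 1334 are left out, the strongest ones are missing from both counts. The call rests on few libraries: 4 were higher without pancreas replicate 1 (all such promoters 0.212%), 10 without pancreas replicate 2 (0.307%), and 40 without SI replicate 1 (2.35%). On library size alone 12 were higher and 12 lower (all such promoters 0.582% and 3.93%).

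Among the 23 were 2 promoters of Il1rl1 and 2 of Klrg1, and those of Il2ra, Il6, Tigit, Socs2, and Zbtb16. Higher here means above the mean of the other tissues, and not above each of them. At Zbtb16 BM (401 and 485 normalised counts) stood above pancreas (285 and 300). The Il1rl1 promoter with the smaller difference had 544 and 296 in pancreas, overlapping lung (302 and 477) and BM (447 and 263). Tigit (227 and 267) overlapped LI (180 and 256), whereas Il2ra (761 and 783) exceeded every other library (444 to 686). Il1rl1, Il2ra, and Klrg1 encode proteins used in the sort, so tissue and gate cannot be told apart in these comparisons. The Il1rl1 promoter with the larger difference (1.89, adjusted p = 0.000163, edgeR) had 302 and 267 normalised counts in pancreas, 185 and 247 in lung, 91.5 and 97.8 in LI, 84.4 and 76.3 in BM, and 33.6 and 10.2 in SI. Lung came closest to pancreas there. The Il6 promoter (difference 0.69, adjusted p = 0.0335, edgeR) had 417 and 540 in pancreas, 252 and 309 in lung, 339 and 288 in LI, 223 and 192 in BM, and 324 and 503 in SI, so that SI overlapped pancreas. Bace2, which encodes a membrane protease, had 269 and 296 in pancreas, 214 and 252 in lung, 197 and 151 in LI, 53.4 and 48.4 in BM, and 54.7 and 27.8 in SI (difference 1.56, adjusted p = 0.000245, edgeR). The 3 promoters that were lower in pancreas were those of Hes1 (-1.29, adjusted p = 0.00226), Utp6, and Rtkn2. Hes1, a transcriptional repressor downstream of Notch, had 250 and 149 normalised counts in pancreas, 341 and 514 in lung, 461 and 618 in LI, 426 and 306 in BM, and 734 and 639 in SI, with no overlap between pancreas and any other tissue.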

How the data were processed

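ATAC-seq libraries of sorted ILC2s from BM, LI, lung, pancreas, and SI (2 each) were used. The authors checked reads with FastQC 0.11.9, mapped them to mm10 with Bowtie2 2.2.9, kept uniquely mapped reads, handled files with SAMtools 1.8, called peaks with MACS2 2.1.1 in each library, merged the peaks shared by replicates over tissues, and deposited raw counts per merged region, which are whole numbers without normalization. Total counts per library lay between 10282987 and 32797872, and intervals of counting error do not cover PCR duplicates, whose removal is not given in the sources used here.

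From these counts, size factors by the median of ratios gave the levels used to choose regions (margin 0.2, pseudocount 1). Differences among the other tissues, and at promoters, were tested with edgeR 4.0.16 (TMM, glmQLFit and glmQLFTest, tissue as the only factor, 10 libraries, 49981 regions with at least 1 count, Benjamini-Hochberg adjustment), after a test on simulated data. Samples were grouped by their labels. Genes came from curated RefSeq transcripts of GRCm38, whose 21 chromosome names and lengths matched the table. The nearest gene in GENCODE M21 was the same for 88.7% of the chosen regions. Sequences are from the RefSeq GRCm38.p6 genome. Alternatives were TMM, library size alone, DESeq2 1.42.0, a pseudocount of 10, stricter filters and margins, thinning, removal of a GC trend (loess, span 0.3), a replicate block, and each library left out.

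Named regions are the 12 with the largest margin, those at genes with at least 4, those with the largest margin in each gene list and all at arachidonate or study pancreas genes, the leading promoter regions, and 3 on each side of the limit. Others named for their comparison among tissues were chosen after their values were seen. Members and lists were chosen with earlier results of these data known. The count over the list of AP-1 and related bZIP factors is not reported here.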

Additional observations from a re-analysis of the deposited data

How the results depend on the processing

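The number of regions most open in pancreas (1334) was 872 with library size alone, 478 with a margin of 0.5, and 78 with a margin of 1. With a library left out it ranged from 1384 to 3408, since a missing library loosens the rule, and 1302 regions (97.6%) were kept whichever library was missing. The promoter share was 7.5% when the window reached 1000 bases on both sides of a TSS. Among settings that kept all 10 libraries, library size alone moved the most counts. It gave 14 regions higher in BM than lung (all regions 5.21%). Between lung and LI it gave 65 higher in lung (all regions 6.8%) and 45 higher in LI (all regions 5.56%). Only 1 was higher in SI than LI (all regions 6.25%). At promoters, 12 were higher and 12 lower in pancreas (all such promoters 0.582% and 3.93%). DESeq2 gave 12 lower promoters (all such promoters 3.78%). The causes were not tested.

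Leaving out a library gave these ranges, with the share of all regions called in brackets. Higher in lung than BM were 194 to 396 regions (6.21% to 13.9%), and 8 to 29 the other way (2.65% to 9.65%). Between lung and LI, 4 to 45 were higher in lung (0.558% to 4.66%) and 5 to 119 in LI (1.96% to 10.9%). Between lung and SI, 336 to 476 were higher in lung (5.73% to 11.4%) and 6 to 19 in SI (4.46% to 11%). Between LI and BM, 263 to 530 were higher in LI (10.6% to 21%) and 9 to 23 in BM (3.89% to 14.7%). Between LI and SI, 261 to 431 were higher in LI (3.91% to 8.04%) and 0 to 1 in SI (0.274% to 3.01%). Between SI and BM, 87 to 148 were higher in SI (8.46% to 14.7%) and 141 to 265 in BM (6.2% to 12.7%). Promoters higher in pancreas ranged from 4 to 40 (0.212% to 2.35% of all such promoters). Lower ones ranged from 0 to 20 (0.0846% to 5.94%). Calls over all regions and over all such promoters also changed with the library left out, so these ranges are not particular to the chosen regions. A tissue left with 1 library is assumed to vary like the others.

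In the labels, replicates of different tissues shared only a number. Deviations of same-numbered libraries correlated between -0.219 and 0.197. They were positive among LI, lung, and SI (0.158 to 0.197) and negative between pancreas and each other tissue (-0.219 to -0.0992). Those of BM with LI, lung, and SI lay between -0.0221 and 0.127. Whether libraries of different tissues were prepared together was not tested. With the replicate block, 5 promoters were lower in pancreas in place of 3, and no other count moved by over 1.5 times. Of 81 alternatives that kept all libraries 69 were taken as unchanged. For counts this meant within 1.5 times of the main count. For the shares at promoters and with the GATA or AP-1 word it meant within the 95% binomial interval of the main share. Depth limits single regions most in pancreas replicate 2.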
